A study of Mus musculus with 20 samples.

Results

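Immediate early genes and the MAP kinase phosphatases that accompany them were followed in ventricles of sham-operated and pressure-overloaded mice. The set was given as 37 gene symbols, and every probe of the bead chip naming one of them, or an older synonym such as *Cyr61* for *Ccn1*, was a member. This gave 59 probes for 36 genes, out of 45281 probes naming 19057 genes. *Fosl1* had no probe and was not analysed here. RNA of left ventricular tissue had been hybridized to Illumina bead chips, with 1 array per mouse, for 4 CTL and 4 DKO mice after sham surgery and for 6 CTL and 6 DKO mice after TAC. All mice were male, 10 to 12 weeks old at surgery and 14 to 16 weeks old at harvest, and TAC, the transverse aortic constriction that loads the left ventricle with pressure, had been in place for 4 weeks. DKO mice carried floxed alleles of both *Dnmt3a* and *Dnmt3b*, the *de novo* DNA methyltransferases, together with a Cre recombinase driven by the promoter of the atrial myosin light chain MLC2a (*Myl7*). CTL mice carried the same floxed alleles without Cre, so that floxed alleles were common to all 4 groups. Cre in this line acts in cardiomyocytes from early heart development, the deleted segment encodes part of the catalytic domain, recombination was incomplete, and the tissue also contains all other cells of the ventricle.

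Immediate early genes are transcribed within minutes of a growth factor, stretch, hormone or stress signal, without the need for new protein synthesis. The signal runs largely through MAP kinases to factors that are already present in the nucleus, such as serum response factor and CREB. Most of the products are short-lived transcription factors or inhibitors that close the loop, among them the dual-specificity phosphatases, which dephosphorylate MAP kinases, and ZFP36, which hastens the decay of early response mRNAs. In the heart this program is known for its brief activation when load rises, well before hypertrophy develops.

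Values are linear probe intensities that have no absolute unit, so levels were compared between arrays for the same probe and never between probes. Probes of a gene are numbered from the brightest. A background line was drawn on each array at the 95th percentile of 1501 probes for olfactory and vomeronasal receptors, and lay between 57.9 and 68.1. The sham and the TAC arrays had been normalized apart, as seen from their sorted values, with medians of 47.5 and 58.6. All 20 arrays were therefore brought to 1 distribution before testing, and a difference between TAC and sham cannot be told apart from a difference between these 2 sets of arrays. Differences are given on the log2 scale with the standard error and the adjusted p of limma, and a probe was called where the adjusted p was below 0.05 with a change of more than 1.5-fold. Of 8 probes for the load markers *Nppa*, *Nppb*, *Myh7*, *Acta1* and *Ankrd1*, 8 were called higher after TAC in CTL and 5 in DKO hearts. The 3 probes of *Dnmt3a* lay near background in all groups, and the brighter *Dnmt3b* probe ranged from 91.3 to 130, with no call between genotypes; whether any of them lies in the deleted segment is not known. Skeletal muscle markers summed to 1820 on the array of sham CTL replicate 2 against 315 to 363 on the others, and atrial markers reached 6950 on that of TAC DKO replicate 3. Without both arrays, the number of member probes called was the same in each of the 5 comparisons.

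Detection set a first limit on what could be seen of the program. Of the 59 member probes, 30 lay above background in all 4 groups, 11 in some groups and 18 in none. All probes of *Fosb*, *Nr4a1*, *Nr4a3*, *Myc*, *Ier5* and *Btg2* were near background in every group. *Nr4a1*, an orphan nuclear receptor, spanned 39.9 to 57.1 over the 20 arrays, and the brighter probe of *Myc*, the growth regulator, spanned 46.3 to 58.4. For these 6 genes a change could not have been measured unless it was large. By the mean over all arrays, 36 probes of 27 genes were above background, as were 35.9% of all probes.

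For 28 of the 36 genes, promoter sequence of 250 bases before to 50 bases after the start of a transcript was given by RefSeq for the GRCm38.p6 build, in 34 windows. They were searched on both strands for 4 motifs: the CArG box bound by serum response factor, the cAMP response element TGACGTCA bound by CREB, the AP-1 site TGANTCA and the Egr site GCGNGGGCG. The CArG box was found in 3 of the 28 genes (10.7%, against 1.81% of 27025 genes with such windows), namely in *Dusp5*, *Egr2* and *Zfp36*. The cAMP response element was found in *Btg2*, *Dusp1* and *Maff* (10.7%, against 2.03%). The Egr site was found in 13 genes (46.4%, against 6.27%) and the AP-1 site in 0 (against 8.97%). The 27025 genes were not matched to the members for base composition, and all fixed letters of the Egr site are G or C. The part of base composition in these shares was not tested. The window of *Fos* held none of the 4. A match is only a description of letters, and sites further upstream are outside these windows. The windows of 4 genes are shown, taken from members called after TAC or varying with *Fos*, and each shown window holds a motif. Like that of *Fos*, the windows of *Ccn1*, *Klf6*, *Dusp6*, *Ier3* and *Junb* held none. The other windows of *Maff* held none either, so the windows shown do not stand for all changed members. The mRNAs of *Dusp1*, *Zfp36* and, by 1 of its 3 probes, *Klf4* were lower after TAC. That of *Maff* followed *Fos* from mouse to mouse, with the limit given further on that its probe was near background after TAC. Sequences run 5′ to 3′ on the strand of the gene, and capitals mark the motifs. *Dusp1* (chr17:26508423-26508722, minus strand) has a cAMP response element starting at -143 from the start site. *Zfp36* (chr7:28379179-28379478, minus strand) has an Egr site at -105 and a CArG box at -58. *Klf4* (chr4:55532426-55532725, minus strand) has Egr sites, both on the opposite strand, at -211 and -194. *Maff* (chr15:79347270-79347569, plus strand) has an Egr site at -88 and a cAMP response element at -29.
Dusp1: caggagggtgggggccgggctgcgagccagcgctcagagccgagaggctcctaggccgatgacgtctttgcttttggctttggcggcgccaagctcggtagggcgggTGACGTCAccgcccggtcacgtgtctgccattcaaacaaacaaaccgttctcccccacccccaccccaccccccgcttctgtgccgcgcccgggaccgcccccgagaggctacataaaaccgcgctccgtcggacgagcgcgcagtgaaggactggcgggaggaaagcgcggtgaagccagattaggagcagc
Zfp36: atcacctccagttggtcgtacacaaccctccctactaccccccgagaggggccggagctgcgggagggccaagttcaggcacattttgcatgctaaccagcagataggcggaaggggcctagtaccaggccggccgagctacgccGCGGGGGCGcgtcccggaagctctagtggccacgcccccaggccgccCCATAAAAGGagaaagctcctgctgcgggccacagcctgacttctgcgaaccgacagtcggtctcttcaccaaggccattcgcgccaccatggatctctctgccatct
Klf4: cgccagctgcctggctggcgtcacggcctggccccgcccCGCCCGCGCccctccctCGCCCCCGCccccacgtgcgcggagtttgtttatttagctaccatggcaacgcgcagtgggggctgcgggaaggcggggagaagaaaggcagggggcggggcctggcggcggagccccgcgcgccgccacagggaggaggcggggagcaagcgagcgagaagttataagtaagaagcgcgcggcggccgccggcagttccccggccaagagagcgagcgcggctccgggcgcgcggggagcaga
Maff: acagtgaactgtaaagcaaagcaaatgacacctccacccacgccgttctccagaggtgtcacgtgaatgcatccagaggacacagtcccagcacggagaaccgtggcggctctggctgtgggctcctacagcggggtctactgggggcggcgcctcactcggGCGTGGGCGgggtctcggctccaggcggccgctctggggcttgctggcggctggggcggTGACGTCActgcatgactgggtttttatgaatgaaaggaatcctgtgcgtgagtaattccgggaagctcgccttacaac

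After TAC, 8 member genes, *Fos*, *Egr1*, *Klf4*, *Klf6*, *Dusp1*, *Dusp6*, *Zfp36* and *Ccn1*, had a probe called lower than in sham hearts in both genotypes. *Ier3* was higher in both. For *Klf4*, *Klf6* and *Dusp6* only 1 probe was called, and their other probes, given below, were not. Most member probes were not called. In CTL hearts 12 of the 59 member probes were called (background 5.17% of all probes), 2 of them higher (1.76%) and 10 lower (3.4%). In DKO hearts 12 were called as well (background 6.74%), 2 higher (2.46%) and 10 lower (4.27%). All these calls fell on the 36 member probes above background by their overall mean. Of these 36, 33.3% were called in each genotype, against 14.2% of all probes above background in CTL and 18.5% in DKO hearts. The 10 probes called lower were the same in CTL and in DKO hearts and belonged to these 8 genes. The intensities of the groups did not overlap for 18 member probes in CTL hearts (16.1% of all probes) and for 16 in DKO hearts (20.5%). Over all 59 probes, 18 of them near background in every group, the median log2 difference was -0.08 in CTL and -0.06 in DKO hearts, against 0.01 and 0.02 over all probes. When each array was instead centred on its median, which places the TAC arrays 0.29 lower on the log2 scale relative to the deposited values, 2 member probes were called higher and 15 lower in CTL hearts, and 1 and 17 in DKO hearts. The share of higher calls among all calls then fell from 34.1% to 4.61% in CTL and from 36.6% to 4.67% in DKO hearts.

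Marker genes of other cells differed between sham and TAC arrays as well. The summed intensity of 7 cardiomyocyte markers ranged from 107000 to 116000 on sham and from 85200 to 103000 on TAC arrays, and that of 4 red blood cell markers from 15200 to 42200 and from 39400 to 52700. The sum of 7 leukocyte markers ranged from 1210 to 1870 and from 688 to 1190, but this gap was carried by 1 probe of *Lyz2* (-1.58 in CTL and -1.84 in DKO hearts). Without *Lyz2* the sums were 410 to 538 and 395 to 695, another *Lyz2* probe was called higher in CTL hearts (0.83), and *Ptprc* and *Itgam* were near background in all 4 groups. Endothelial markers, from a cell type in which *Klf2* and *Klf4* are known to be active, summed to 5520 to 8010 on sham and 5640 to 7310 on TAC arrays. Of 13 endothelial probes, 2 were called lower in CTL hearts, of *Pecam1* (-0.86) and *Egfl7* (-0.63), and 0 in DKO hearts. None was called higher. The sums of fibroblast (7860 to 10300 and 7340 to 11800) and smooth muscle markers (3770 to 7240 and 5170 to 11200) overlapped, but single markers did not follow the sums. *Myh11*, the myosin of smooth muscle (1.32 and 1.45), *Tagln* (0.73 and 0.63), *Col1a1*, a collagen of fibroblasts (1.56 and 1.17), and *Lum* (0.97 and 0.80) were called higher in both genotypes, and *Col3a1* lower (-0.81 and -1.05). In DKO hearts *Acta2* (0.99 and 1.26 for 2 probes) and *Tcf21* (0.61) were also called higher and *Dcn* lower (-0.66). Of 15 cardiomyocyte probes, 5 were called lower in CTL and in DKO hearts. These were of *Pln* (-1.64 and -1.93), *Tnni3* (-1.37 and -1.47), *Myh6* (-1.35 and -1.59), *Actc1* (-1.33 and -1.49) and *Ryr2* (-0.85 and -0.96). A probe of *Actn2* was called higher in CTL hearts (0.60). The called probes of *Myh6*, *Actc1* and *Actn2* were not those in the sum. The TAC arrays also differed among themselves. *Pln* read 1340 and 1690 on TAC CTL replicates 1 and 2 and 1620 to 1770 on TAC DKO replicates 1 to 4. On the other TAC arrays it read 2530 to 3090 in CTL and 2590 and 2880 in DKO hearts. *Tnni3* split the same way, at 612 to 811 against 1150 to 1600. The arrays with low values were thus spread unevenly over the genotypes. Adipocyte sums were 484 to 615 and 594 to 794, with *Adipoq*, *Plin1* and *Ucp1* near background. The part of these shifts in the results below was not tested, and in whole tissue fewer cells of a type cannot be told apart from less RNA per cell. Probes of 1 gene also went opposite ways between the sets: among genes with 2 or more called probes, probes were called in opposite directions for 18 of 185 in CTL hearts, while DKO hearts had 29 of 250. Only 1 member gene, *Ccn1*, had 2 or more called probes.

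Among the AP-1 genes, whose products dimerize into the AP-1 transcription factor, only *Fos* was called. On the sham CTL arrays *Fos* (ILMN_2750515) had intensities of 334, 276, 567 and 508, and on the sham DKO arrays of 331, 562, 294 and 369. On the TAC arrays the lowest, the median and the highest value were 67.4, 102 and 125 in CTL and 71.1, 92.3 and 177 in DKO hearts. Every TAC array lay below every sham array. The log2 difference was -2.05 in CTL hearts (standard error 0.23, 95% interval -2.53 to -1.57, adjusted p = 6.62e-07), which is 4.13-fold lower, and -1.88 in DKO hearts (standard error 0.23, -2.36 to -1.40, adjusted p = 1.42e-06), 3.68-fold lower. *Jun*, the main partner of FOS, did not share this. Its intensities were 304, 284, 239 and 266 on sham CTL and 301, 289, 249 and 312 on sham DKO arrays, with medians of 361 (297 to 429) in TAC CTL and 367 (269 to 396) in TAC DKO hearts. Its difference of 0.40 in CTL hearts had an adjusted p of 0.00765 at a fold change of 1.32, under the threshold, and that in DKO hearts was 0.28 (adjusted p = 0.0521). *Junb*, a JUN relative that acts as a weaker activator, was at 248, 335, 459 and 401 on sham CTL and 265, 457, 306 and 365 on sham DKO arrays for its brighter probe. In TAC hearts its values ran from 200 over 243 to 338 in CTL and from 215 over 289 to 353 in DKO mice. The groups overlapped, and the differences of -0.48 (adjusted p = 0.0504) and -0.31 (adjusted p = 0.196) were not called; centring each array on its median turned both into calls, at -0.95 and -0.79. Without sham CTL replicate 1, the array at 248, the difference in CTL hearts was also called, at -0.65. *Atf3*, a stress-induced repressor of the ATF family, differed between TAC and sham by 0.52 in CTL and -0.33 in DKO hearts, with overlapping groups and adjusted p of 0.142 and 0.346. Without TAC CTL replicate 3, the lowest of its group at 73.6, the difference in CTL hearts was called, at 0.68. *Jund*, *Fosl2* and *Maff* were not called, with differences between -0.41 and 0.37 over both genotypes.

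Of the Egr and Nr4a genes, *Egr1* was called. EGR1 is a zinc finger factor that binds GC-rich sites and, like *Fos*, is driven by serum response factor. *Egr1* (ILMN_2662926) reached 3810, 5540, 6530 and 5990 on the sham CTL arrays and 4890, 7400, 4810 and 4250 on the sham DKO arrays. After TAC the lowest, the median and the highest value were 545, 942 and 1630 in CTL and 724, 1240 and 2450 in DKO hearts. The groups did not overlap in either genotype. The log2 difference was -2.59 in CTL hearts (standard error 0.29, -3.18 to -2.00, adjusted p = 4.68e-07), 6.01-fold lower, and -2.04 in DKO hearts (standard error 0.29, -2.63 to -1.45, adjusted p = 7.68e-06), 4.12-fold lower. These were the lowest differences among the 59 member probes. *Egr2* and *Egr3*, its close relatives, did not go along, with differences from 0.03 to 0.43 in CTL and from -0.04 to 0.16 in DKO hearts and adjusted p of 0.0574 and above. *Nr4a2*, a nuclear receptor, had differences of 0.13 and -0.04.

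**Figure D1:**
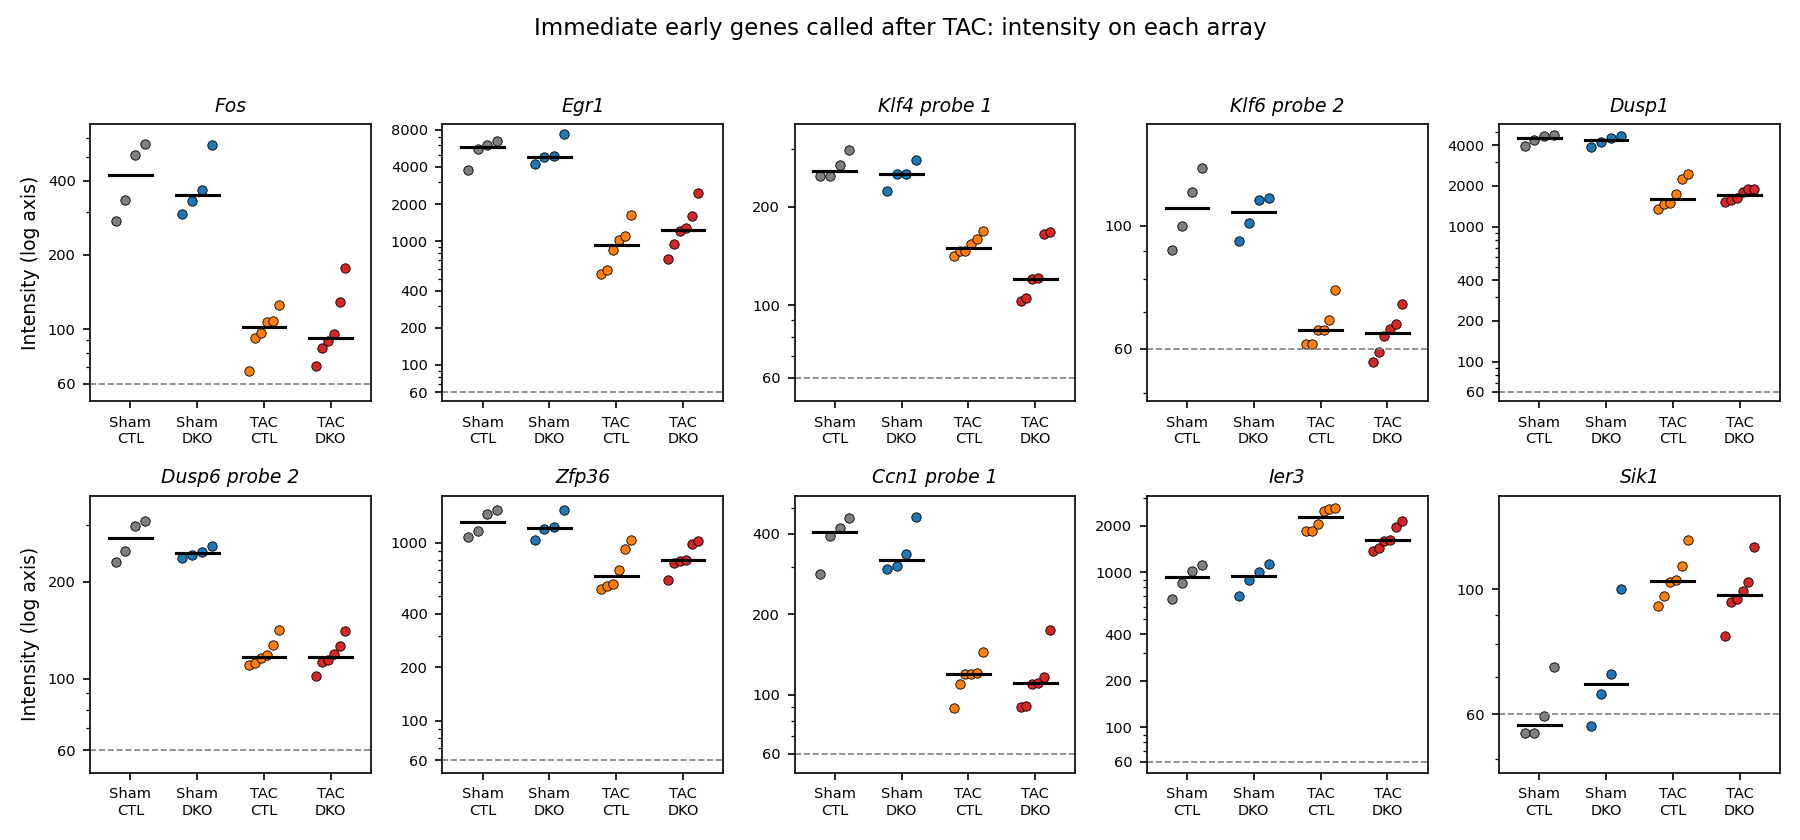
Intensity on each array (log axis, linear intensity) of 10 probes of members called after TAC, for sham CTL and DKO (4 arrays each) and TAC CTL and DKO mice (6 each). Points are single mice set side by side in order of value, bars are group medians and the dashed line is the median background line of 60. *Fos*, *Egr1*, *Klf4* probe 1, *Klf6* probe 2, *Dusp1*, *Dusp6* probe 2, *Zfp36* and *Ccn1* probe 1 sit lower on all TAC arrays than on the sham arrays of the same genotype, and *Ier3* higher.

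Among the Klf factors, zinc finger regulators of vascular and myocardial genes, *Klf4* and *Klf6* were called, each through 1 probe. *Klf4* probe 1 had intensities of 298, 248, 268 and 248 in sham CTL and 277, 251, 251 and 223 in sham DKO hearts, against 141, 150 and 169 (lowest, median, highest) in TAC CTL and 103, 121 and 168 in TAC DKO hearts. The groups did not overlap, with differences of -0.80 (standard error 0.11, adjusted p = 1.58e-05) and -0.97 (standard error 0.11, adjusted p = 8.91e-07). The other probes of *Klf4* disagreed, at 0.05 and 0.09 in CTL and -0.06 and 0.02 in DKO hearts, so the lower value rests on 1 of 3 probes. *Klf6* probe 2 was at 127, 99.8, 115 and 90.2 in sham CTL and 101, 112, 111 and 93.8 in sham DKO hearts, and at 61.3, 64.8 and 76.6 in TAC CTL and 56.8, 64.1 and 72.2 in TAC DKO hearts, close to background. Its differences were -0.70 (standard error 0.09, adjusted p = 3.03e-06) and -0.71 (standard error 0.09, adjusted p = 1.72e-06), and both calls were lost at log2(value + 50). The brighter *Klf6* probe went the same way, at -0.52 (adjusted p = 0.00185, 1.44-fold) in CTL and -0.24 (adjusted p = 0.129) in DKO hearts; it was called in CTL hearts without sham CTL replicate 3 (-0.60) and on the deposited values (-0.70), and in both genotypes under median centring (-0.72 in DKO hearts). *Klf2*, a flow-sensitive factor of the endothelium, had intensities of 926, 859, 1190 and 1030 in sham CTL and of 1120, 1000, 822 and 1030 in sham DKO hearts, with medians of 866 (765 to 1120) after TAC in CTL and 782 (616 to 1040) in DKO hearts. Its differences of -0.17 and -0.30 were not called (adjusted p = 0.435 and 0.103); under median centring both were, at -0.65 and -0.79. *Klf10*, a target of TGF-beta, stayed near background in sham hearts, with differences of 0.40 and 0.30 for its brighter probe, under the fold threshold; on the deposited values the first was called, at 0.69.

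Of the 5 MAP kinase phosphatases, *Dusp1* and *Dusp6* were called lower. *Dusp1*, a nuclear phosphatase of p38, JNK and ERK, had intensities of 4420, 3960, 4660 and 4790 in sham CTL and 4520, 4720, 3880 and 4240 in sham DKO hearts. After TAC these were 1360, 1610 and 2460 (lowest, median, highest) in CTL and 1530, 1710 and 1900 in DKO hearts. Sham arrays of both genotypes formed a narrow band well above all TAC arrays. The differences were -1.35 in CTL (standard error 0.13, -1.61 to -1.08, adjusted p = 6.29e-08), 2.55-fold lower, and -1.33 in DKO hearts (standard error 0.13, -1.60 to -1.07, adjusted p = 4.65e-08), 2.52-fold lower. *Dusp6*, the cytoplasmic phosphatase specific for ERK, has 3 probes that differed in size. Probe 2 read 230, 249, 298 and 308 in sham CTL and 242, 259, 237 and 248 in sham DKO hearts, and 110, 117 and 142 in TAC CTL and 102, 117 and 141 in TAC DKO hearts. Its groups did not overlap, with differences of -1.16 (standard error 0.09, adjusted p = 3.91e-09) and -1.05 (standard error 0.09, adjusted p = 8.79e-09). Probe 1, the brightest, read 942, 991, 1030 and 980 in sham CTL and 944, 924, 994 and 874 in sham DKO hearts, with TAC medians of 717 (681 to 846) and 871 (694 to 997). Its difference in CTL hearts was -0.40 (adjusted p = 0.00106, 1.32-fold, not called) and in DKO hearts -0.11 (adjusted p = 0.39); both were called under median centring, at -0.89 and -0.59. Probe 3 was near background. *Dusp5*, a nuclear phosphatase of ERK, had differences of 0.13 and -0.07, and *Dusp2* lay at or near background. *Dusp4*, of which 1 probe was called higher in DKO hearts, is described with the genotypes.

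The feedback and growth arrest genes split. *Zfp36*, which encodes the mRNA decay factor tristetraprolin, was lower, with 1080, 1170, 1520 and 1450 in sham CTL and 1200, 1530, 1040 and 1220 in sham DKO hearts, against 552, 646 and 1040 in TAC CTL and 616, 797 and 1020 in TAC DKO hearts. TAC CTL replicate 1, the highest of its group at 1040, came within reach of the lowest sham array. The differences were -0.87 (standard error 0.17, adjusted p = 0.000445) and -0.59 (standard error 0.17, adjusted p = 0.00963). The second is just past the fold threshold at 1.51-fold and was lost in 6 of 28 alternative settings, among them without sham DKO replicate 2 (-0.49, adjusted p = 0.0523) and, narrowly under the fold threshold, without TAC DKO replicate 1 (-0.58), 5 (-0.51) or 6 (-0.57), at log2(value + 50) (-0.56) and with the replicate number as a block (-0.55). *Ier3*, a short-lived stress protein that modulates cell survival, was higher. It had 673, 859, 1020 and 1110 in sham CTL and 1010, 889, 700 and 1140 in sham DKO hearts, and 1840, 2270 and 2600 in TAC CTL and 1370, 1610 and 2130 in TAC DKO hearts. Every TAC array was above every sham array. The differences were 1.30 (standard error 0.15, 0.98 to 1.61, adjusted p = 1.03e-06), 2.45-fold, in CTL and 0.85 (standard error 0.15, 0.54 to 1.17, adjusted p = 0.000136), 1.81-fold, in DKO hearts; the second was not called under median centring, at 0.38 (adjusted p = 0.0613). *Sik1*, a kinase that restrains CREB-driven transcription, was called in CTL hearts only. Its values were 59.5, 72.8, 55.6 and 55.6 in sham CTL and 100, 70.6, 57.2 and 65.3 in sham DKO hearts, close to background, and 93.4, 104 and 122 in TAC CTL and 82.7, 97.7 and 119 in TAC DKO hearts. The difference was 0.79 in CTL (standard error 0.12, adjusted p = 3.24e-05; lost at log2(value + 50)) and 0.46 in DKO hearts (adjusted p = 0.00579, under the fold threshold). Without sham DKO replicate 1, the array at 100, the difference in DKO hearts was called, at 0.61. The difference between the 2 genotypes in this response was not called (-0.33, 95% interval -0.69 to 0.02, adjusted p = 0.939).

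The remaining genes of this group were not called. *Socs3*, an inhibitor of JAK-STAT signalling, had 142, 156, 128 and 124 in sham CTL and 177, 188, 129 and 151 in sham DKO hearts, and medians of 109 (102 to 150) in TAC CTL and 119 (94.9 to 140) in TAC DKO hearts. Its differences of -0.25 (adjusted p = 0.179) and -0.46 (adjusted p = 0.00813) stayed under the fold threshold, and became calls of -0.61 and -0.84 under median centring. *Rgs2*, which switches off Gq signalling, had values of 61.5 to 77.6 in sham CTL, 59.3 to 78.6 in sham DKO, 55.2 to 63.4 in TAC CTL and 53.4 to 63.6 in TAC DKO hearts for its brighter probe, all near the background line. Both *Rgs2* probes had negative differences, from -0.45 to -0.19, none over the fold threshold. *Ier2*, *Ier5* and *Btg2*, an antiproliferative cofactor, were at or near background, with differences between -0.23 and 0.04. *Gadd45b* and *Gadd45g*, stress sensors that stop the cell cycle, had differences between -0.31 and 0.24; *Gadd45g* probe 1 was called in DKO hearts under median centring (-0.71).

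*Ccn1*, which encodes a matricellular protein secreted in response to stretch and growth factors, was lower through all 3 of its probes. Probe 1 read 394, 284, 459 and 422 in sham CTL and 303, 463, 296 and 337 in sham DKO hearts, and 89.4, 120 and 145 in TAC CTL and 89.6, 111 and 174 in TAC DKO hearts. The groups were apart in both genotypes. The differences were -1.72 (standard error 0.17, -2.06 to -1.38, adjusted p = 7.71e-08), 3.29-fold lower, in CTL and -1.62 (standard error 0.17, -1.96 to -1.27, adjusted p = 1.15e-07), 3.07-fold lower, in DKO hearts. Probes 2 and 3 gave -0.88 and -1.30 in CTL and -0.89 and -1.38 in DKO hearts, with adjusted p between 1.84e-09 and 0.000567. Only 3 of the 6 TAC DKO arrays were above background for probe 3, which makes its fold there at least 2.38-fold lower. *Arc*, best known as a synaptic gene, spread widely among sham mice, from 71.5 to 305 in CTL and from 60.5 to 327 in DKO hearts, against 78.0 to 117 and 82.0 to 138 after TAC. Its differences of -0.63 and -0.83 were not called (adjusted p = 0.211 and 0.0788), but depended on single sham arrays. Without sham CTL replicate 3, at 71.5, the difference in CTL hearts was called at -0.99 (adjusted p = 0.0388), and without sham DKO replicate 1, at 60.5, that in DKO hearts was called at -1.35 (adjusted p = 0.000559). The difference in DKO hearts was also called without sham CTL replicate 3 or 4, with dim probes left out (adjusted p = 0.0492), on the deposited values (-0.87) and under median centring (-1.17).

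**Figure D2:**
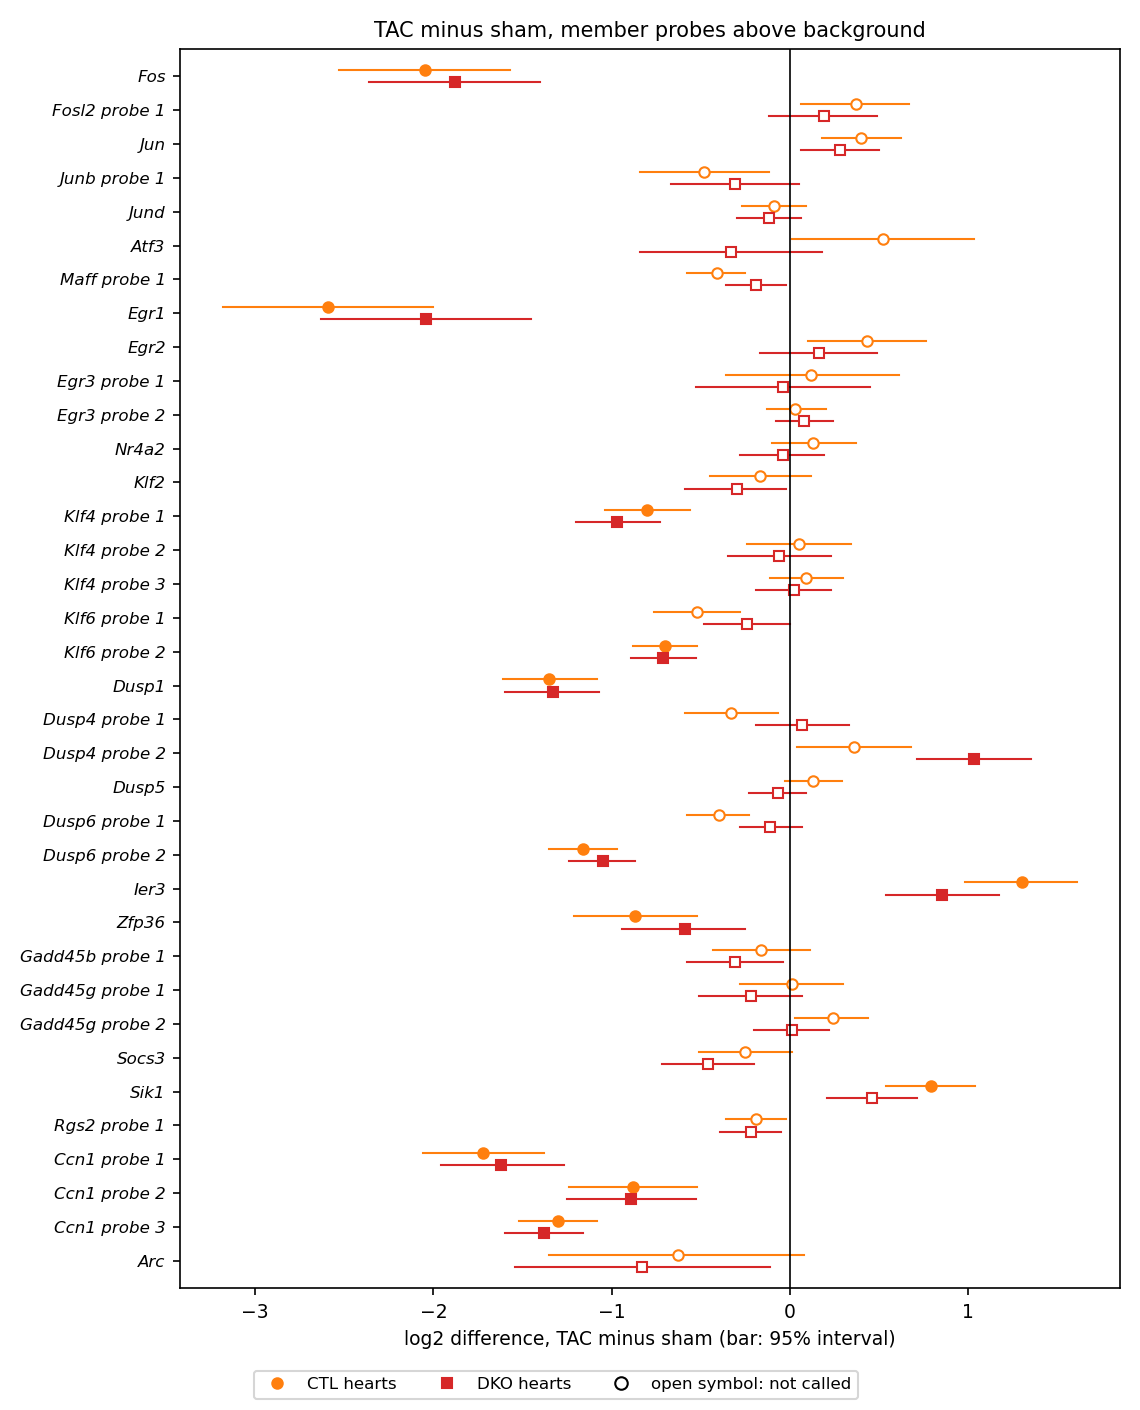
Log2 difference TAC minus sham of the 36 member probes above background by their overall mean, in CTL (circles) and DKO hearts (squares), with 95% intervals; filled symbols were called. *Egr1*, *Fos* and *Ccn1* probe 1 lie farthest to the left in both genotypes, *Ier3* is to the right in both, and the other 23 member probes, at or under the line by their overall mean, held no call.

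In sham hearts, no member was called between the genotypes. Of the 59 member probes, 0 were called (background 0.102% of all probes) and 0 had an unadjusted p under 0.05 by limma, against 2514 of all 45281 probes. The groups overlapped for all 59 probes, whereas they did not overlap for 3.89% of all probes. The log2 differences DKO minus CTL ranged from -0.16 to 0.32 with a median of -0.01. For the genes that were clearest after TAC the intervals were still wide, at -0.62 to 0.43 for *Fos*, -0.69 to 0.61 for *Egr1*, -0.33 to 0.25 for *Dusp1*, -0.44 to 0.32 for *Zfp36* and -0.53 to 0.22 for *Ccn1* probe 1. Differences within these intervals were not excluded with 4 mice in each group.

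In TAC hearts, 1 member probe was called between the genotypes, *Dusp4* probe 2 (background 0.144% of all probes, 0.128% called higher). *Dusp4* encodes a nuclear phosphatase that acts on ERK and JNK, and it has 4 probes. Probe 2 (ILMN_2689731) read 56.5, 49.0, 47.2 and 49.7 on sham CTL and 53.4, 54.6, 53.9 and 53.6 on sham DKO arrays, all near background. After TAC the lowest, the median and the highest value were 58.1, 64.0 and 76.1 in CTL and 83.7, 101 and 200 in DKO hearts, where all 6 arrays were above background against 3 of 6 in CTL hearts. Every TAC DKO array lay above every TAC CTL array; in either direction, these groups did not overlap for 0.554% of all probes. The difference DKO minus CTL after TAC was 0.76 (standard error 0.14, 95% interval 0.47 to 1.05, adjusted p = 0.00912), 1.69-fold higher. Without TAC DKO replicate 1, the array at 200, it was 0.59 (adjusted p = 0.00071). The call was lost when only the TAC arrays were fitted (adjusted p = 0.0728) and at log2(value + 50) (0.49, adjusted p = 0.0501).

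The other *Dusp4* probes followed in part. Probe 1, the brightest, read 109, 84.0, 104 and 82.0 in sham CTL and 98.9, 95.2, 107 and 85.9 in sham DKO hearts. After TAC it had 62.5, 75.4 and 88.7 (lowest, median, highest) in CTL and 82.0, 95.6 and 143 in DKO hearts, with overlap. Its difference DKO minus CTL after TAC was 0.44 (0.21 to 0.67), with an adjusted p of 0.126, and that of probe 3 was 0.15 (0.00 to 0.29, adjusted p = 0.547). Probe 4 was near background in all groups, at 0.01. The probes also differed in how TAC hearts compared with sham hearts. Probe 2 rose in DKO hearts by 1.03 (standard error 0.16, adjusted p = 1.95e-05), at least 1.88-fold since the sham arrays were near background. In CTL hearts it was 0.36 higher (adjusted p = 0.103, not called), but on the deposited values this difference was called, at 0.64 (adjusted p = 0.000527). Probe 1, by contrast, was at 0.07 in DKO and -0.33 in CTL hearts, neither called. Which transcripts each probe reads is not given in the sources used here. Atrial markers summed to 463 to 1430 in TAC CTL and to 688 to 6950 in TAC DKO hearts; without TAC DKO replicate 3, the array with the highest sum, the difference of probe 2 was 0.76 as before (adjusted p = 0.0258).

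**Figure D3:**
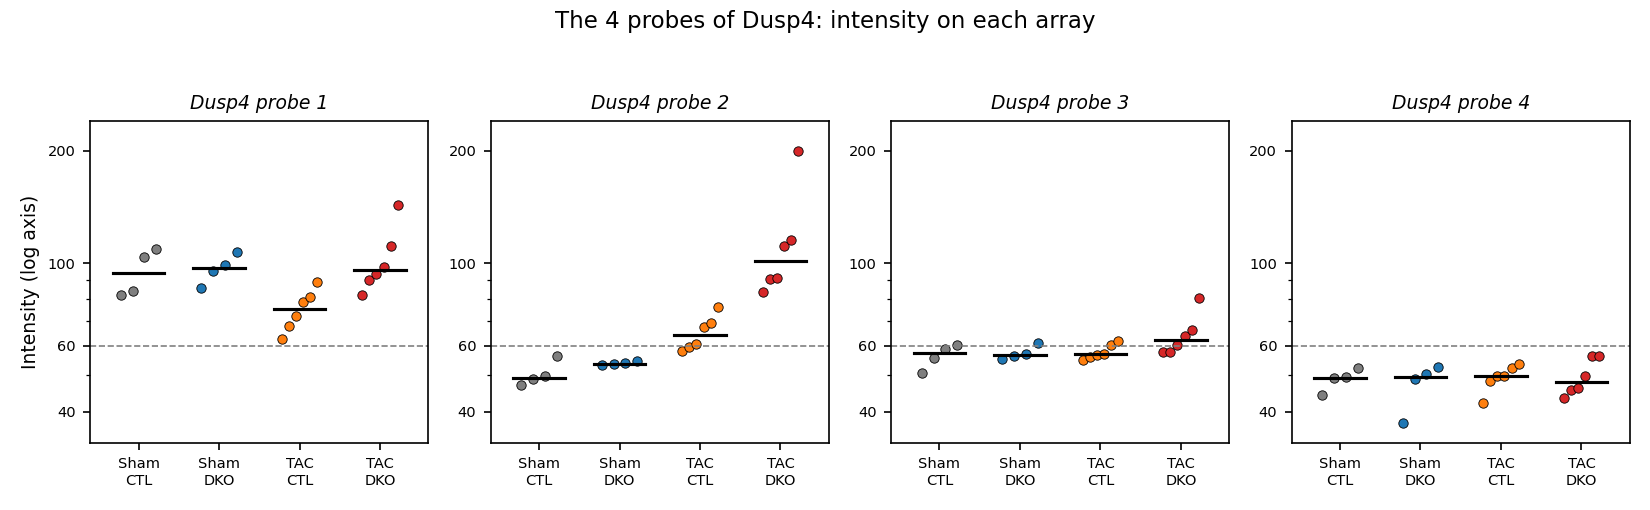
Intensity on each array (log axis, linear intensity) of the 4 *Dusp4* probes in CTL and DKO mice after sham surgery (4 arrays each) or TAC (6 each). Points are single mice set side by side in order of value, bars are medians and the dashed line is the median background line of 60. On probe 2 all 6 TAC DKO arrays, from 83.7 to 200, are above all TAC CTL arrays, from 58.1 to 76.1, whereas on probe 1 the groups overlap.

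Other members differed less between TAC DKO and TAC CTL hearts. An unadjusted p under 0.05 was reached by 9 of 59 member probes, against 4073 of all 45281 probes, among them 3 probes of *Dusp4*, 2 of *Klf4* and 1 each of *Klf6*, *Dusp6*, *Atf3* and *Ier3*. *Ier3* was 0.41 lower in DKO hearts (difference -0.41, -0.69 to -0.13, adjusted p = 0.335). *Atf3*, with 121, 195, 73.6, 138, 105 and 145 in TAC CTL and 51.4, 79.1, 85.2, 99.7, 85.4 and 132 in TAC DKO hearts, had a difference of -0.54 (-0.99 to -0.08, adjusted p = 0.468). *Klf4* probe 1 had a difference of -0.25 (-0.46 to -0.04) and *Dusp6* probe 1 of 0.22 (0.06 to 0.38). None of these passed the adjustment over all probes, and all of their groups overlapped. For *Fos* the difference was 0.07 (-0.36 to 0.50), for *Egr1* 0.51 (-0.02 to 1.03) and for *Dusp1* -0.03 (-0.26 to 0.21). Differences within these intervals were not excluded with 6 mice in each group.

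**Figure D4:**
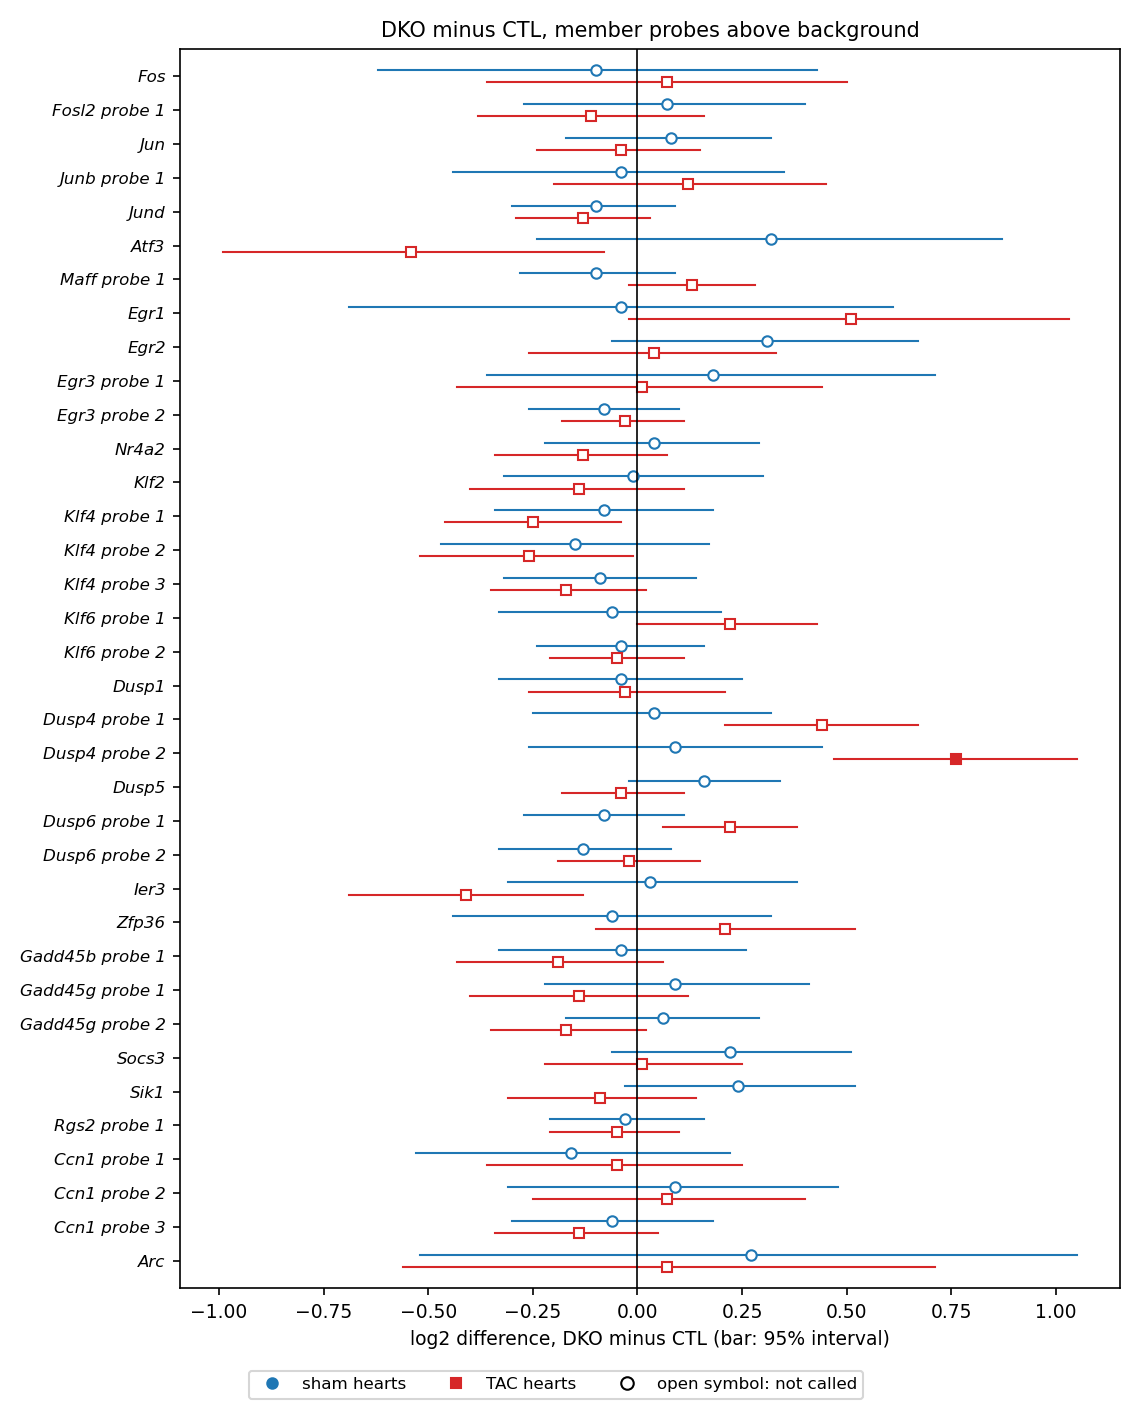
Log2 difference DKO minus CTL of the 36 member probes above background by their overall mean, in sham (circles) and TAC hearts (squares), with 95% intervals; filled symbols were called. *Dusp4* probe 2 in TAC hearts, at 0.76, is the 1 filled symbol, and the differences in sham hearts lie between -0.16 and 0.32.

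Whether the genotype changed the response to TAC was tested as the interaction of genotype and surgery, in which a shift common to a set of arrays cancels. No member probe was called (0 of 59, background 0.00221% of all probes), and 4 had an unadjusted p under 0.05 by limma, *Dusp4* probes 1 and 2, *Dusp6* probe 1 and *Atf3*. The interaction was 0.67 for *Dusp4* probe 2 (0.21 to 1.12, adjusted p = 0.939), so its response to TAC was not shown to differ between the genotypes. That of *Atf3* was -0.85 (-1.57 to -0.13), the largest of the set in size, with the same adjusted p. For the genes called lower after TAC in both genotypes the interaction was 0.17 for *Fos* (-0.51 to 0.85), 0.55 for *Egr1* (-0.29 to 1.38), 0.01 for *Dusp1* (-0.36 to 0.39) and 0.10 for *Ccn1* probe 1 (-0.38 to 0.59).

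Genes up- and downstream of the members were taken from 3 lists of the pathway. Of 82 probes for 29 genes of the MAP kinase cascade and its nuclear targets, 2 were called lower in CTL and 2 lower and 2 higher in DKO hearts after TAC (2.44% and 4.88% of the list, against 5.17% and 6.74% of all probes, so that the list lay below the general rate). The 2 lower genes were *Map2k1*, a kinase that activates ERK (-1.33 and -1.32), and *Srf*, which encodes serum response factor (-0.60 and -0.77). Intensities of *Srf* were 1210 ± 154 in sham CTL and 1210 ± 93.3 in sham DKO (SD, n = 4 each) and, after TAC, 797 ± 67.6 in CTL and 711 ± 46.7 in DKO hearts (SD, n = 6 each). *Map2k5* (0.79) and *Mapkapk3* (0.59) were higher in DKO hearts. Of 27 probes for 15 other MAP kinase phosphatases and feedback inhibitors, *Dusp16*, a phosphatase of JNK and p38, was lower in both genotypes (-0.76 and -1.03) and *Dusp3* higher in DKO hearts (0.71), which is 3.7% and 7.41% of the list and near the share of all probes. Of 63 probes for 40 other early response genes, 7 were called in CTL and 9 in DKO hearts (11.1% and 14.3%). *Nfkbia*, the inhibitor of NF-kB (-1.16 and -1.23), *Adamts1*, a matrix protease (-1.02 and -1.05), and *Plk2* (-0.91 and -0.67) were lower in both genotypes. *Ccn2*, the matricellular relative of *Ccn1*, went the other way, at 1.05 and 1.19 for its brightest called probe. *Hbegf*, a ligand of the EGF receptor, was higher in CTL hearts (0.91) and *Irs2*, an adaptor of insulin signalling, in DKO hearts (0.99). After TAC the mean intensities of *Nfkbia* (67 in CTL and 60.2 in DKO hearts), *Adamts1* (57.9 and 61.1) and *Map2k1* (64.3 and 57.2) were close to the background line. Background thus limits the size of their differences. No probe of the 3 lists was called between the genotypes or for the interaction.

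From mouse to mouse, part of the set varied together with *Fos*. Each array's deviation from the mean of its own group was taken on the log2 scale, so that differences between group means drop out. Differences among arrays of 1 group, such as the split of the TAC arrays in *Pln* and *Tnni3*, remain. On the TAC arrays low for *Pln*, *Fos* read 89.5 to 177 and *Junb* 254 to 353, against 67.4 to 125 and 200 to 285 on the others. The part of this split in the relations below was not tested. The deviations of *Fos* were compared with those of the 26 other member genes above background, each by its brightest probe, over 20 mice. *Egr1* (Pearson r = 0.69, Spearman rho = 0.66, permutation p = 0.00117 and 0.00274) and *Junb* (0.66 and 0.66, permutation p = 0.00533 and 0.00587) came first. *Dusp1* (0.62 and 0.72, permutation p = 0.00024 and 0.00015), *Ccn1* (0.62 and 0.55, permutation p = 0.0119 and 0.0245) and *Zfp36* (0.58 and 0.61, permutation p = 0.00894 and 0.00478) followed. These two-sided p-values come from 100000 permutations within groups and are not adjusted for the 26 relations computed. *Maff*, a small MAF protein that dimerizes with other leucine zipper factors, had r = 0.69 as well, but its probe was near background in both TAC groups, with 1 of 6 arrays above the line in each (50.4 to 61.2 in CTL and 53.5 to 72.1 in DKO hearts), so this value is not read as a relation of expression. An r over 0.5 was seen in 6 of 26 member genes, or 5 of the 23 whose probe was above background in all 4 groups, and in 1.87% of all probes and 1.45% of those above background. For *Jun*, *Atf3*, *Ier3* and *Sik1* r was 0.04, 0.11, 0.31 and -0.09. *Klf4* had a negative value (-0.48, permutation p = 0.0691), as had *Nr4a2* (-0.57), which was near background in sham CTL and TAC DKO hearts.

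Sham and TAC arrays were also taken apart. Within the 8 sham and the 12 TAC arrays r was 0.71 and 0.73 for *Egr1*, 0.81 and 0.54 for *Junb* and 0.85 and 0.61 for *Dusp1*, but 0.93 and 0.41 for *Ccn1* and 0.94 and 0.42 for *Zfp36*. TAC DKO replicate 4 and sham DKO replicate 2 had the largest *Fos* deviations, 0.79 and 0.58 above their groups. Without these 2 arrays r was 0.55 for *Egr1*, 0.55 for *Junb*, 0.62 for *Dusp1* and 0.64 for *Zfp36*, and 0.36 for *Ccn1*, whose relation thus rests partly on them. All these values share the arrays and their normalization. Among the 100 probes that varied most closely with *Fos*, 4 were member probes, of *Egr1* (rank 22), *Maff* (28), *Dusp6* (42) and *Junb* (59). The *Dusp6* probe was not its brightest, for which r was 0.42. *Ccn1* (122), *Dusp1* (138) and *Zfp36* (280) ranked lower. Most of the 100 probes, olfactory receptor probes among them, were not above background by their overall mean. The number of member probes was 0 for the TAC arrays alone, 2 without sham CTL replicate 3 and 1 without TAC DKO replicate 4.

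**Figure D5:**
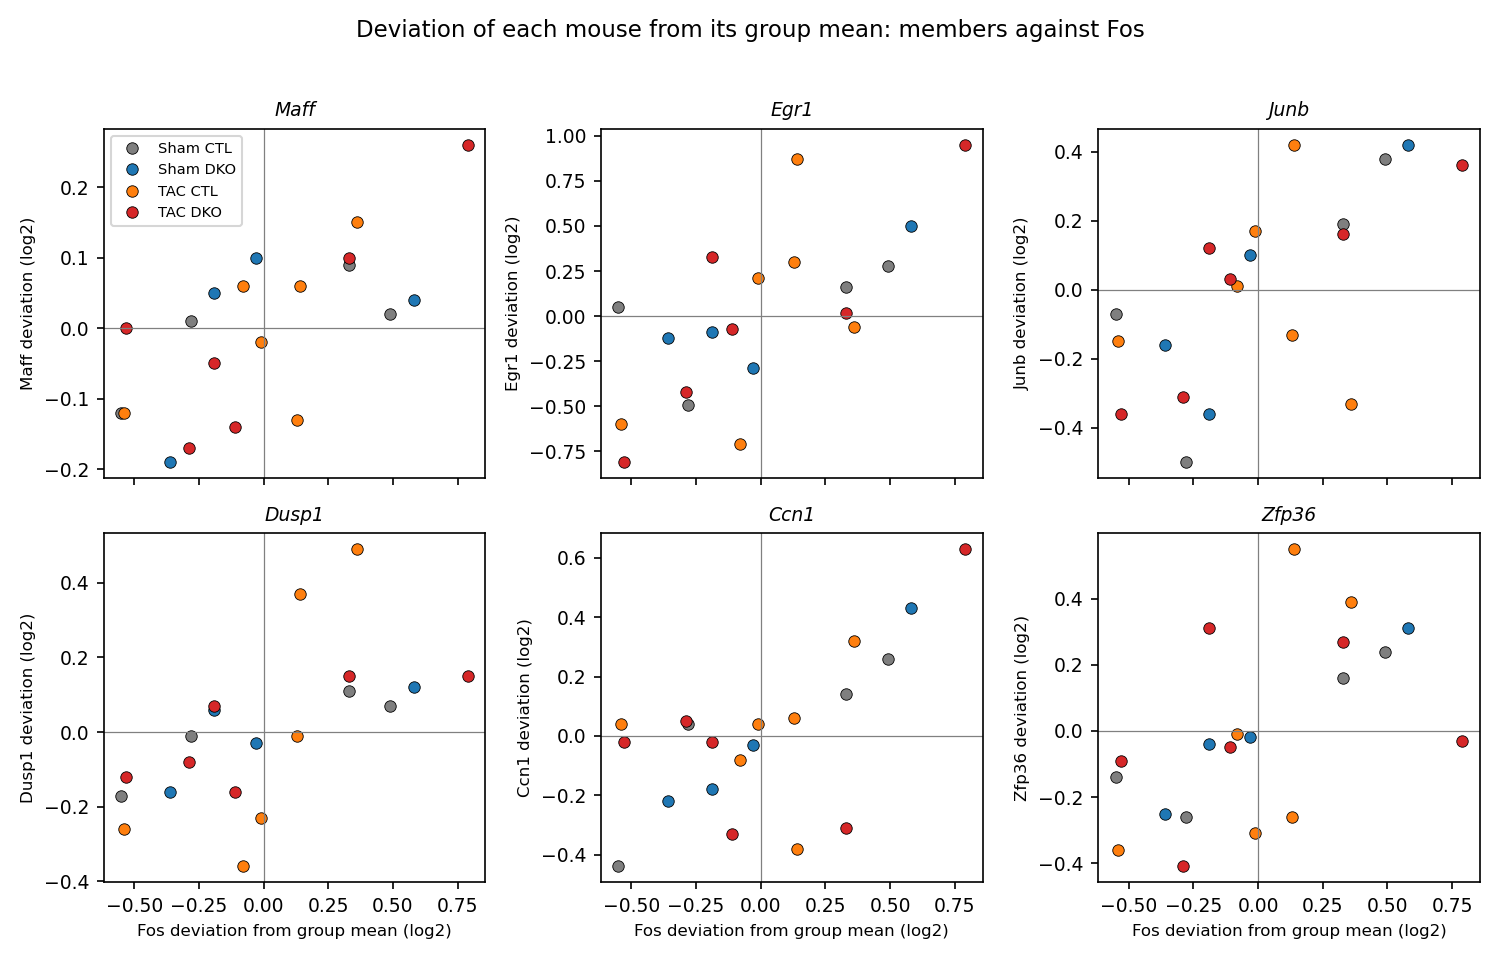
Deviation of each of 20 mice from the mean of its group (log2) for 6 members, each by its brightest probe, against the deviation of *Fos*. Each point is 1 mouse, coloured by group. Points run from lower left to upper right for *Egr1*, *Maff*, *Junb*, *Dusp1*, *Ccn1* and *Zfp36*, with r between 0.58 and 0.69 (*Maff* was near background on most TAC arrays), and TAC DKO replicate 4 lies at the far right at 0.79.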

How the data were processed

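RNA of mouse left ventricle was hybridized to Illumina bead chips, 1 array per mouse, for the 4 groups of 4, 4, 6 and 6 mice. The authors deposited 1 table of linear intensities per probe, read with GenomeStudio 2010.3 per the submitters' processing notes. Sorted values were equal within 0.2% for at least 97.5% of ranks among the 8 sham and at least 99.9% among the 12 TAC arrays, and for at most 0.413% between the sets, as after quantile normalization within each set. The number of arrays limits the precision, and 1 array was 1 mouse. Probes were named through the platform annotation, updated by gene identifier to RefSeq (34885 probes name 1 gene, 18 several, which were not used for naming, and 10378 none; 34807 matched).

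Values were taken to log2, quantile normalized over all 20 arrays and fitted with limma 3.58.1 (R 4.3.3) with 1 mean per group (16 residual and 6.64 prior degrees of freedom). P-values were adjusted by Benjamini-Hochberg over all 45281 probes, and the fit was tested on simulated data. A group was near background where its mean was at or under its background line. Where a group was near background, the bound on a fold took the higher of the line and the probe's own value. The genes named are all members, and in the pathway lists up to 4 called probes with the largest fold per list and comparison. The members and lists were chosen with earlier results of these data known. Alternatives were the deposited values, median centring, log2(value + 50), leaving out dim probes, trended robust variance, the replicate number as a block, no fold threshold, fitting only the groups compared, and leaving out each array. Promoters came from RefSeq (GRCm38.p6). Summaries and plots were made with Python 3.11.15, pandas 2.3.3 and matplotlib 3.10.9.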

Additional observations from a re-analysis of the deposited data

Results flagged for a closer look

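Each group of each of 22 member probes with results in the text, 88 group and probe pairs in all, was searched for a single array set apart from the rest of its group, which chance alone finds in about 1 group of 20. It was found in 2 of the 88. *Dusp4* probe 2 read 200 on TAC DKO replicate 1 against 83.7 to 115 on the other arrays of the group, a gap of 0.637 of the group's range. *Rgs2* probe 1 read 55.2 on TAC CTL replicate 4 against 60.4 to 63.4 on the others, a gap of 0.648 of the range, with all of these values close to the background line. The causes were not tested.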

How the results depend on the processing

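The 25 called differences of single probes were recomputed under 28 other settings each, 700 values in all. Of these, 688 kept their direction and call, 12 lost the call and 0 reversed. Many of the 700 values could hardly lose a call. With no fold threshold a call cannot be lost. Leaving out an array of a group not compared acts only through the shared normalization and estimate of spread. The 688 are therefore not independent checks. The losses were *Dusp4* probe 2 between genotypes after TAC (2), *Klf6* probe 2 in both genotypes and *Sik1* at log2(value + 50), *Ier3* in DKO hearts under median centring and *Zfp36* in DKO hearts (6). Across settings *Fos* ranged from -2.45 to -1.62 in CTL and from -2.29 to -1.48 in DKO hearts. The count of member probes called between genotypes after TAC, 1 as reported, was 0 at log2(value + 50) and 0 when only the groups compared were fitted. The count after TAC in DKO hearts, 12 as reported, was 20 with no fold threshold. The member probes among the 100 closest to *Fos*, 4 as reported, were 0 on the TAC arrays alone and 1 to 6 when single arrays were left out, with the lowest value without TAC DKO replicate 4. The called probes of the 3 pathway lists, 25 as reported, were 49 under median centring. On the deposited values, 4 member probes were called higher and 13 lower in CTL hearts. Replicate numbers were not taken to pair the samples, since not every pair with the same number had a correlation of deviations over 0.1. Within a surgery set 6 pairs did, 4 of 6 after TAC (0.13 to 0.38, the others 0.04 and -0.19) and 2 of 4 in sham hearts (0.11 and 0.22); between the sets the range was -0.09 to 0.07, and 9 of 20 arrays correlated best with their own number. With the replicate block, 0, 1, 12, 11 and 0 member probes were called in the 5 comparisons, the loss being *Zfp36* in DKO hearts. Leaving out sham CTL replicate 2 and TAC DKO replicate 3 together was chosen after seeing the data. Probes near background limit what could be detected. The causes of these changes were not tested.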
